A study of Danio rerio with 24 samples.

Results

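Maternal transcription factor transcripts are mRNAs for DNA-binding regulators that the mother loads into the egg. They were followed here as 66 array probes whose gene name begins like that of a transcription factor family, in 24 single, mature, unfertilized zebrafish eggs from 5 mothers. The names were Sox, Fox, Hox, Pax, Tbx, Gata, Klf, Znf, Zbtb, Zfp, Pou, Irx, Nkx, Lhx, Dlx, Meis, Her, Hes, E2f, Ets, Elf, Nr1 to Nr6, Nfy and Tead. They were read in the study's gene symbols or in the current symbols of the paired Ensembl genes, over 3835 probes that the held parts of 3 annotated probe lists of the study name. The array's main design set held 88754 probes, of which 27101 were called expressed here. Of 77 probes that matched by name, 66 had a mean deposited log2 signal of at least 7 and became members, 10 of them through the current symbol alone. The members nearest to that limit were foxn1 at 7.04 and znf592 at 7.07, and the nearest name left out was nr1h4 at 6.96, followed by 10 others, among them znf983, znf1144, nkx1.2la, gata6, znf516, sox4a, hoxb13a, pou3f2b and her15.1.

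All eggs were wild-type ABTL eggs, squeezed from 5 sister mothers, with no treatment. Mothers 1, 2, 3 and 4 gave 5 eggs each, and mother 5 gave 4 eggs. Each array carried the amplified RNA of 1 egg, labelled with Cy3, next to a Cy5-labelled reference made from pooled eggs. Values are log2 Cy3 signals after quantile normalization, which brings all arrays to one distribution, so that a difference of 1 is a 2-fold change in relative signal. Background was not subtracted, so folds of dim probes may understate folds in abundance. Each group of eggs has 1 mother, so the p-values compare these 5 mothers against the spread between eggs of a mother. Each mother is also represented by 1 clutch. As the paper states, mother and clutch are confounded, so a difference between mothers here may belong to the clutch.

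A zebrafish embryo lives on stored maternal RNA until the zygotic genome is activated at the mid-blastula transition, and transcription factors made from maternal mRNA take part in opening and activating the first zygotic genes. The families differ in how they hold DNA. Sox proteins bind through an HMG box, forkhead proteins through a winged helix, Hox, Dlx, Irx, Lhx and POU proteins through a homeodomain, and Klf, Zbtb and most Znf proteins through zinc fingers. Many of these genes are better known for later work in the embryo than for a role in the egg.

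By their names 59 of the 66 members were counted as transcription factors or cofactors. The other 7, partners of such proteins among them, carried such a name but were not counted. They were tbxas1, the enzyme thromboxane A synthase, nr2c2ap, a partner of a nuclear receptor, PAXBP1, a partner of Pax proteins, znf598, a ubiquitin ligase that acts on stalled ribosomes, znf593, a ribosome biogenesis protein, znf346, which binds double-stranded RNA, and a probe named tram2 by the study and paxx by the current gene table. They were kept as members under the rule. Zinc finger names formed the largest family with 27 members, followed by 10 homeodomain and paired-box names, 6 forkhead, 6 nuclear receptor, 6 BTB zinc finger, 5 Klf and 3 Sox names, 2 of the smaller families and tbxas1. The paired genes of 54 members had a position in the study's tables, on 24 chromosomes of the Zv9 assembly.

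How a member entered the study's lists bears on every count. Of the 66 members, 27 were in the list of expressed genes, which did not depend on a difference between mothers. The other 39 were held only in the list of probes with distinct levels (32), in that of the study's own F-test, or in both. Their differences between mothers thus chose them, and their folds and ranges are given as a description with no p. The study's F-test passed nearly all of its expressed genes, so that list chose less strictly. Shares given for probes held only in those lists pool both. Fit on the whole table with limma's moderated F-test, 59 of 66 members differed between mothers at an adjusted p under 0.05, against 61.5% of all expressed probes. Among the 27, 21 differed (77.8%), against 65.4% of the expressed probes in the same list. Of the 39, 38 differed, as did 90.6% of the expressed probes held only in those lists. Because of how the 39 were chosen, that count, and their part in counts over all 66, is no evidence of a difference. The members that did not pass were klf6a, znf326, tead1a, znf598, znf592 and znf217 of the 27, and zbtb41 of the others.

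The mean of the highest mother was more than 2-fold that of the lowest, with an adjusted p under 0.05, for 25 of the 66 members, where the share of all expressed probes was 10.2%. For the 27 members in the list of expressed genes the count was 4 (14.8%), against 10.9% in the same list, and these were znf410, irx1a, sox9b and znf395a. The median fold over the 27 was 1.42, against 1.39 for the expressed probes of that list and 1.36 for all expressed probes. Distinct levels, meaning that the ranges of the clutches fall into at least 2 groups with no overlap, were shown by 38 of the 66 members, against 18.2% of all expressed probes, and by 5 of the 27 (18.5%), against 18.4% in the same list. For the 39 members chosen by a difference the counts were 21 with a fold over 2 and 33 with distinct levels, where 37% and 77.6% of all expressed probes held only in those lists had them.

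**Figure D1:**
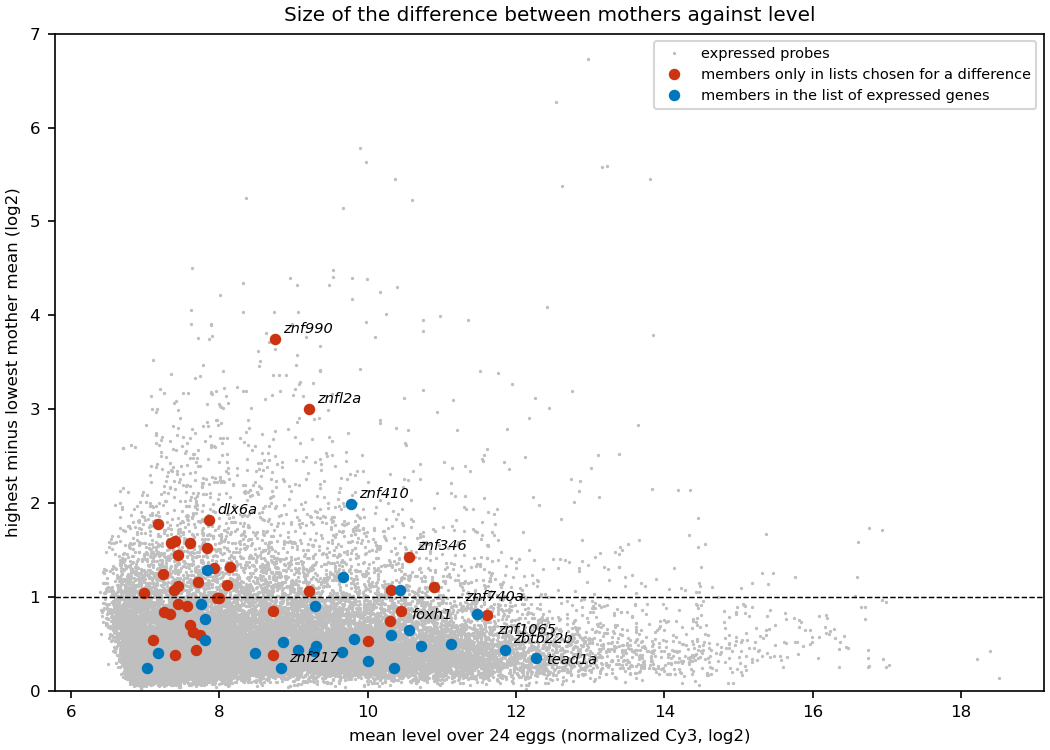
Highest minus lowest mother mean (log2, vertical axis) against the mean level over 24 eggs (log2 normalized Cy3 signal, horizontal axis). Grey points are the 27101 expressed probes, red points the 39 members held only in lists chosen for a difference, blue points the 27 in the list of expressed genes, and the dashed line marks a 2-fold difference. The most abundant members, among them tead1a at 12.27, lie under the line.

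Variation within clutches was read after quantile normalization. The largest ratio of the highest to the lowest egg within any clutch was at most 2 for 59 of the 66 members, against 89.4% of all expressed probes. The 32 members held only in the list of distinct levels were chosen for ranges without overlap, which favours narrow clutches. Among the 27 members in the list of expressed genes the count was 23 (85.2%), against 90% in the same list. Over all 24 eggs the same ratio, called mFC, had a median of 2.48 among members and exceeded 2 for 51 of them, where the share of all expressed probes was 44%. Among the 27 members in the list of expressed genes it exceeded 2 for 15 (55.6%), against 46.1% in the same list. The 7 members with a clutch in which eggs differed by more than 2-fold were irx1a, hoxd12a, znf410, znf346, znfl2a, zbtb20 and sox9b. With the arrays brought only to a common median, the ratio within clutches was at most 2 for 1.515% of members, against 9.42% of all expressed probes.

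The zinc finger gene znf990 (si:dkey-253d23.7 in the study's names, chr22:9869418-9872106 in Zv9) had the largest fold of the members. Eggs 1 to 5 of mother 4 measured 10.59, 10.68, 11.04, 10.67 and 10.57 log2 units. In mother 2 they measured 9.27, 9.15, 9.45, 9.02 and 9.25, in mother 5 9.20, 9.26, 9.09 and 9.01, in mother 1 8.14, 7.66, 7.79, 7.73 and 7.68, and in mother 3 7.16, 6.82, 6.76, 7.10 and 6.96. All eggs of mother 4 lay above all others, mothers 2 and 5 shared a middle level, and mothers 1 and 3 each had a level of their own without overlap. Mother 4 averaged 10.71 ± 0.19 and mother 3 6.96 ± 0.17 (SD, n = 5 each), a 13.4-fold difference. On the 4 slides that held an egg of both, the egg of mother 4 was higher by 3.51 to 4.28 log2 units. With clutches that do not overlap, this direction was fixed beforehand and adds no support.

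Another zinc finger gene, znfl2a (chr2:129176-133115), split the mothers differently. The eggs of mother 2 measured 10.61, 10.81, 10.12, 10.84 and 10.95 and those of mother 3 10.38, 9.94, 10.03, 10.39 and 10.59. Mother 1 had 8.11, 8.87, 9.30, 9.08 and 8.74, mother 4 7.66, 8.31, 8.39, 8.55 and 8.69 and mother 5 7.77, 7.16, 7.75 and 8.01. Every egg of mothers 2 and 3 was above every egg of the other mothers, by at least 0.64 log2 units. The mean was 10.67 ± 0.33 in mother 2 (SD, n = 5) and 7.67 ± 0.36 in mother 5 (SD, n = 4), 7.97-fold apart. Within the clutch of widest spread the eggs differed by up to 2.29-fold.

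**Figure D2:**
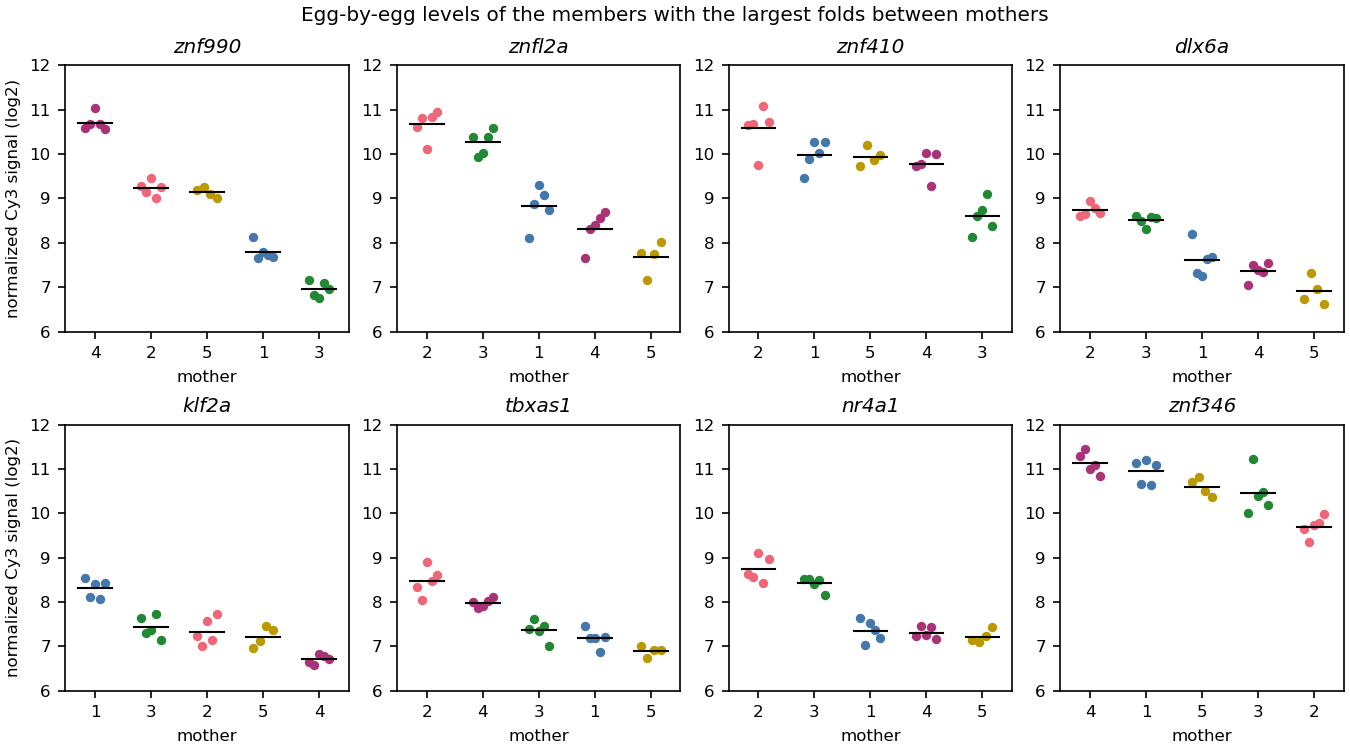
Normalized Cy3 signal (log2, vertical axis) of every egg (points) for the 8 members with the largest folds among those well above background in all 24 eggs, with mothers ordered within each panel by their mean (black lines), the highest at the left. The eggs of mother 4 lie between 10.57 and 11.04 for znf990, apart from all others, whereas for znf410 only mother 3 is separated.

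The gene znf410 encodes a zinc finger factor that in mammalian cells acts on the chromatin remodeller gene CHD4, and it came from the list of expressed genes. Its eggs measured 10.66, 10.67, 9.76, 11.09 and 10.73 in mother 2, 9.46, 9.89, 10.27, 10.03 and 10.27 in mother 1 and 9.72, 10.20, 9.86 and 9.97 in mother 5. In mother 4 they had 9.74, 9.78, 10.02, 9.28 and 10.01, and in mother 3 8.14, 8.61, 8.75, 9.10 and 8.38. The eggs of mother 3 were all below the remaining 19, whose ranges overlapped. Mother 2 averaged 10.58 ± 0.49 and mother 3 8.60 ± 0.36 (SD, n = 5 each), 3.96-fold apart (adjusted p = 3.13e-07). This was the largest fold among the 27 members in the list of expressed genes. The study's tables list 3 other transcripts that the znf410 probe may bind. Such transcripts were listed for at least 42 of the 66 members, so a member's signal need not come from 1 gene.

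The distal-less homeobox gene dlx6a, known for jaw and forebrain patterning, was low in abundance, and its eggs measured 8.60, 8.66, 8.94, 8.78 and 8.67 in mother 2 and 8.61, 8.50, 8.30, 8.58 and 8.56 in mother 3. In mother 1 they measured 8.19, 7.31, 7.25, 7.63 and 7.68, in mother 4 7.06, 7.49, 7.39, 7.35 and 7.55 and in mother 5 6.73, 7.32, 6.97 and 6.62. Mothers 2 and 3 were above the rest without overlap, with the eggs of mother 1 reaching closest. The fold between mother 2 at 8.73 ± 0.14 (SD, n = 5) and mother 5 at 6.91 ± 0.31 (SD, n = 4) was 3.53.

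The orphan nuclear receptor gene nr4a1, an immediate early gene in many cells, had the same division of mothers. Mother 2 had 8.63, 8.56, 9.11, 8.43 and 8.98 and mother 3 8.53, 8.51, 8.41, 8.50 and 8.17. Mother 1 had 7.64, 7.03, 7.53, 7.37 and 7.20, mother 4 7.24, 7.47, 7.25, 7.43 and 7.16 and mother 5 7.14, 7.09, 7.23 and 7.43. A gap of 0.53 log2 units separated both groups of clutches, and the fold from the means of mother 2 (8.74 ± 0.29, SD, n = 5) and mother 5 (7.22 ± 0.15, SD, n = 4) was 2.87. Its relative nr4a2b (chr6:12227221-12231692) was highest in mother 3 with 7.92, 7.95, 7.97, 7.99 and 8.07, followed by mother 2 with 7.80, 7.57, 7.63, 7.52 and 7.73, mother 5 with 7.33, 7.35, 7.28 and 7.51 and mother 1 with 7.31, 7.76, 7.15, 7.43 and 7.11, and lowest in mother 4 with 6.95, 6.76, 6.88, 6.85 and 6.85. Mother 3 at 7.98 ± 0.06 and mother 4 at 6.86 ± 0.07 (SD, n = 5 each) were 2.18-fold apart. For nr4a2b the eggs of mothers 3 and 4 overlapped with no other clutch, while mothers 1, 2 and 5 shared a middle range.

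The Krüppel-like gene klf2a, known from blood vessels that respond to flow, was highest in mother 1 with 8.55, 8.11, 8.41, 8.08 and 8.44. Mothers 3, 2 and 5 overlapped, with 7.63, 7.31, 7.38, 7.73 and 7.15 in mother 3, 7.23, 7.0, 7.57, 7.15 and 7.73 in mother 2 and 6.96, 7.12, 7.45 and 7.36 in mother 5. Mother 4 was lowest with 6.66, 6.59, 6.83, 6.78 and 6.71. The means of mother 1 (8.32 ± 0.21) and mother 4 (6.72 ± 0.10, SD, n = 5 each) differed 3.03-fold. Among the other Klf members, klf7b and klf12a were both highest in mother 5 and lowest in mother 2, 2.49-fold and 2.24-fold apart. KLF8 differed 1.36-fold between mothers 2 and 3, and klf6a had 9.10 ± 0.41 in mother 2 (SD, n = 5) and 8.57 ± 0.05 in mother 5 (SD, n = 4), which did not pass (adjusted p = 0.0606).

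Of the members whose names are not those of transcription factors, tbxas1 and znf346 had a fold over 2. For tbxas1 the eggs of mother 2 measured 8.35, 8.04, 8.91, 8.47 and 8.61 and those of mother 4 8.0, 7.87, 7.91, 8.02 and 8.12, above 7.39, 7.62, 7.35, 7.47 and 7.0 in mother 3, 7.46, 7.20, 7.20, 6.88 and 7.21 in mother 1 and 7.01, 6.75, 6.91 and 6.92 in mother 5. Mothers 2 and 4 thus stood apart from the others, and mother 2 (8.48 ± 0.32, SD, n = 5) exceeded mother 5 (6.90 ± 0.11, SD, n = 4) 2.99-fold. For znf346 mother 4 had 11.28, 11.45, 10.99, 11.09 and 10.84, mother 1 11.13, 10.65, 11.21, 10.63 and 11.09, mother 5 10.71, 10.82, 10.50 and 10.37 and mother 3 10.01, 11.23, 10.39, 10.47 and 10.19, whereas mother 2 had 9.64, 9.35, 9.74, 9.77 and 9.98. Mother 2 alone was separated, by 0.04 log2 units, and mother 4 at 11.13 ± 0.24 exceeded mother 2 at 9.70 ± 0.23 (SD, n = 5 each) 2.7-fold.

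Among the forkhead members, foxh1 encodes the DNA-binding partner of Smad2 in Nodal signalling and was the one member in a list of factors known from zygotic genome activation. The probe had 10.51, 10.84, 10.83, 10.98 and 10.77 in mother 1, 10.72, 10.69, 10.90 and 10.80 in mother 5 and 10.27, 10.65, 10.70, 10.65 and 10.82 in mother 4. In mother 3 it had 10.35, 9.96, 10.40, 10.26 and 10.12, and in mother 2 9.75, 9.96, 9.85, 10.13 and 9.97. Mothers 1, 4 and 5 were above mother 2 in every egg, but the ranges of mothers 3 and 4 overlapped and joined all clutches into 1 level. Mother 1 (10.78 ± 0.17) exceeded mother 2 (9.93 ± 0.14, SD, n = 5 each) 1.8-fold, and the probe came from the list of the study's F-test. The list of factors known from zygotic genome activation had 2 further probes. yy1b, a zinc finger factor held only in the list of distinct levels, was highest in mother 3 at a mean of 7.20 and lowest in mother 2 at 6.32, with 19 of 24 eggs well above background, and ctcf, which organizes chromatin loops, was highest in mother 4 at 10.75 and lowest in mother 3 at 10.38 (1.29-fold, adjusted p = 0.00011). Probes for the factors Pou5f3, Nanog and Sox19b were not analysed here.

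All 6 forkhead members differed between mothers, where 61.5% of all expressed probes did, and of the 6 foxm1 and FOXK2 were in the list of expressed genes. The others came from lists chosen by a difference, and 90.6% of the expressed probes held only in those lists differed. foxm1, which drives mitotic genes in dividing cells, was highest in mother 4 at 11.00 ± 0.15 and lowest in mother 2 at 10.52 ± 0.20 (SD, n = 5 each; 1.4-fold, adjusted p = 0.00778). FOXK2 was highest in mother 1 at 11.26 ± 0.17 and lowest in mother 2 at 10.76 ± 0.13 (SD, n = 5 each), 1.42-fold apart (adjusted p = 0.00106), with mother 2 below all other clutches by a gap under 0.01 log2 units. foxr1 was highest in mother 3 and lowest in mother 1 (1.77-fold). foxn1, known from the thymus, was highest in mother 4 and lowest in mother 2, where 1 of 5 eggs was well above background (2.05-fold between the measured means, the lower of them near background). The direction thus differed from gene to gene within the family.

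The Sox members are known from cartilage, neural crest and gonad. sox5 had 7.69, 7.96, 7.79, 7.89 and 7.72 in mother 4 and 7.75, 7.59, 7.80 and 7.57 in mother 5. Mother 3 had 7.65, 7.83, 7.88, 7.62 and 7.17 and mother 1 7.79, 6.88, 7.61, 7.49 and 7.54, whereas mother 2 had 6.19, 6.36, 6.18, 6.13 and 6.31. No egg of mother 2 was well above background, while all 19 other eggs were. Set against the detection floor of those arrays, the mean of mother 4 was at least 2.67-fold higher than that of mother 2. The clock repressor gene nr1d2a behaved alike, with 7.51 ± 0.12 in mother 4 and 6.26 ± 0.11 in mother 2 (SD, n = 5 each), at least 2.16-fold higher in mother 4. nr1d2a was in the lists of the F-test and of distinct levels, and its 5 eggs of mother 2 were not well above background. A bound of this kind takes, in the dim clutch, the dimmest signal still well above background on each array or the probe's own signal if higher.

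The 4 most abundant members had folds under 2. tead1a, the partner of the Hippo pathway cofactor Yap, was at 12.27 log2 units over all eggs. Its eggs measured 12.66, 12.02, 12.54, 12.58 and 12.42 in mother 3 and 12.38, 12.58, 12.42, 12.19 and 12.25 in mother 2. Mother 1 had 12.15, 12.26, 12.58, 12.32 and 12.09, mother 5 12.11, 11.84, 12.21 and 12.37 and mother 4 11.98, 11.87, 12.37, 12.02 and 12.24. The clutches overlapped, and the 1.27-fold between mothers 3 and 4 did not pass (adjusted p = 0.082).

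The BTB zinc finger gene zbtb22b had 11.96, 12.22, 12.02, 12.01 and 12.26 in mother 4 and 11.85, 11.91, 12.16, 11.90 and 11.69 in mother 2. Mother 5 had 11.81, 11.74, 11.93 and 11.81, mother 3 11.96, 11.61, 12.02, 11.65 and 11.58 and mother 1 11.92, 11.70, 11.71, 11.68 and 11.25. The clutches again overlapped, and mother 4 (12.09 ± 0.14) exceeded mother 1 (11.65 ± 0.24, SD, n = 5 each) 1.36-fold (adjusted p = 0.0176). The call was lost when egg 2 or egg 5 of mother 4 was left out, with an adjusted p of 0.0505 and 0.0525. It was also lost with the processed signals scaled by their 75th percentile (adjusted p = 0.192) and with the Cy3 over Cy5 ratio (adjusted p = 0.0774).

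A further abundant zinc finger gene, znf740a, had 11.93, 11.95, 12.07, 12.22 and 11.56 in mother 3 and 11.75, 11.89, 11.81, 11.95 and 12.04 in mother 2, against 11.32, 10.96, 11.35 and 11.14 in mother 5, 11.17, 11.13, 11.21, 10.99 and 11.31 in mother 4 and 11.10, 11.07, 11.30, 11.00 and 11.17 in mother 1. Mothers 2 and 3 were higher in every egg, and mother 3 (11.95 ± 0.25) exceeded mother 1 (11.13 ± 0.11, SD, n = 5 each) 1.77-fold (adjusted p = 4.2e-08). The znf1065 probe had 12.22, 12.09, 12.43, 12.16 and 11.76 in mother 4 and 12.16, 11.85, 11.68 and 11.77 in mother 5. Mother 3 had 11.25, 11.54, 11.40, 11.29 and 11.59, mother 1 11.58, 11.53, 10.87, 11.27 and 11.57 and mother 2 11.77, 11.31, 10.97, 11.34 and 11.24. Mother 4 at 12.13 ± 0.24 and mother 2 at 11.32 ± 0.29 (SD, n = 5 each) were 1.75-fold apart with overlapping ranges between neighbours. The study's tables list 29 other transcripts that this probe may bind, in a cell held in shortened form, so its value cannot be tied to 1 gene. A probe for 1 of those transcripts, named zgc:174315, gave another order. It had 8.01 ± 0.30 in mother 2 (SD, n = 5) and 6.47 ± 0.16 in mother 5 (SD, n = 4), 2.9-fold apart.

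The members with the smallest mFC were zbtb2b, znf217, znf592 and znf598. For zbtb2b all eggs lay between 9.75 and 10.32, with 10.32, 10.29, 10.19, 10.18 and 10.03 in mother 3 and 9.92, 9.87, 10.08, 10.19 and 10.13 in mother 2. Mother 5 had 10.00, 10.04, 10.04 and 9.95, mother 4 10.01, 9.81, 9.86, 10.02 and 9.90 and mother 1 9.99, 9.75, 9.99, 9.80 and 9.90. The mFC was 1.49, and the 1.24-fold between mother 3 (10.20 ± 0.12) and mother 1 (9.89 ± 0.11, SD, n = 5 each) passed the test (adjusted p = 0.00959), though not with the Cy3 over Cy5 ratio (adjusted p = 0.538). For znf217, whose product is a co-repressor in mammals, mother 4 had 9.14, 8.78, 9.17, 8.82 and 8.74, mother 5 8.95, 9.03, 8.98 and 8.51, mother 3 8.87, 8.80, 8.83, 8.91 and 8.86, mother 2 8.73, 8.86, 8.70, 8.83 and 8.93 and mother 1 8.74, 8.54, 8.68, 8.62 and 8.89, an mFC of 1.58 (adjusted p = 0.27). No clutch of znf217 was separated from another.

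For znf592 the eggs lay close to the level limit of the members, with 7.18, 7.44, 7.17 and 6.89 in mother 5 and 7.19, 7.06, 7.14, 6.90 and 6.90 in mother 1. Mother 3 had 6.96, 7.11, 6.93, 7.01 and 7.0, mother 4 6.97, 7.01, 7.16, 6.94 and 6.79 and mother 2 6.90, 6.77, 7.02, 7.0 and 6.97 (adjusted p = 0.227). For znf598 they measured 10.27, 10.54, 10.65, 10.50 and 10.48 in mother 4 and 10.22, 10.11, 10.48, 10.43 and 10.55 in mother 2. Mother 5 had 10.20, 10.47, 10.36 and 10.30, mother 3 10.31, 10.45, 10.34, 10.33 and 10.22 and mother 1 10.33, 9.95, 10.23, 10.26 and 10.48 (adjusted p = 0.269). The mFC was 1.59 for znf592 and 1.63 for znf598, and the clutches of each overlapped. A p that misses the threshold does not show equal levels.

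**Figure D3:**
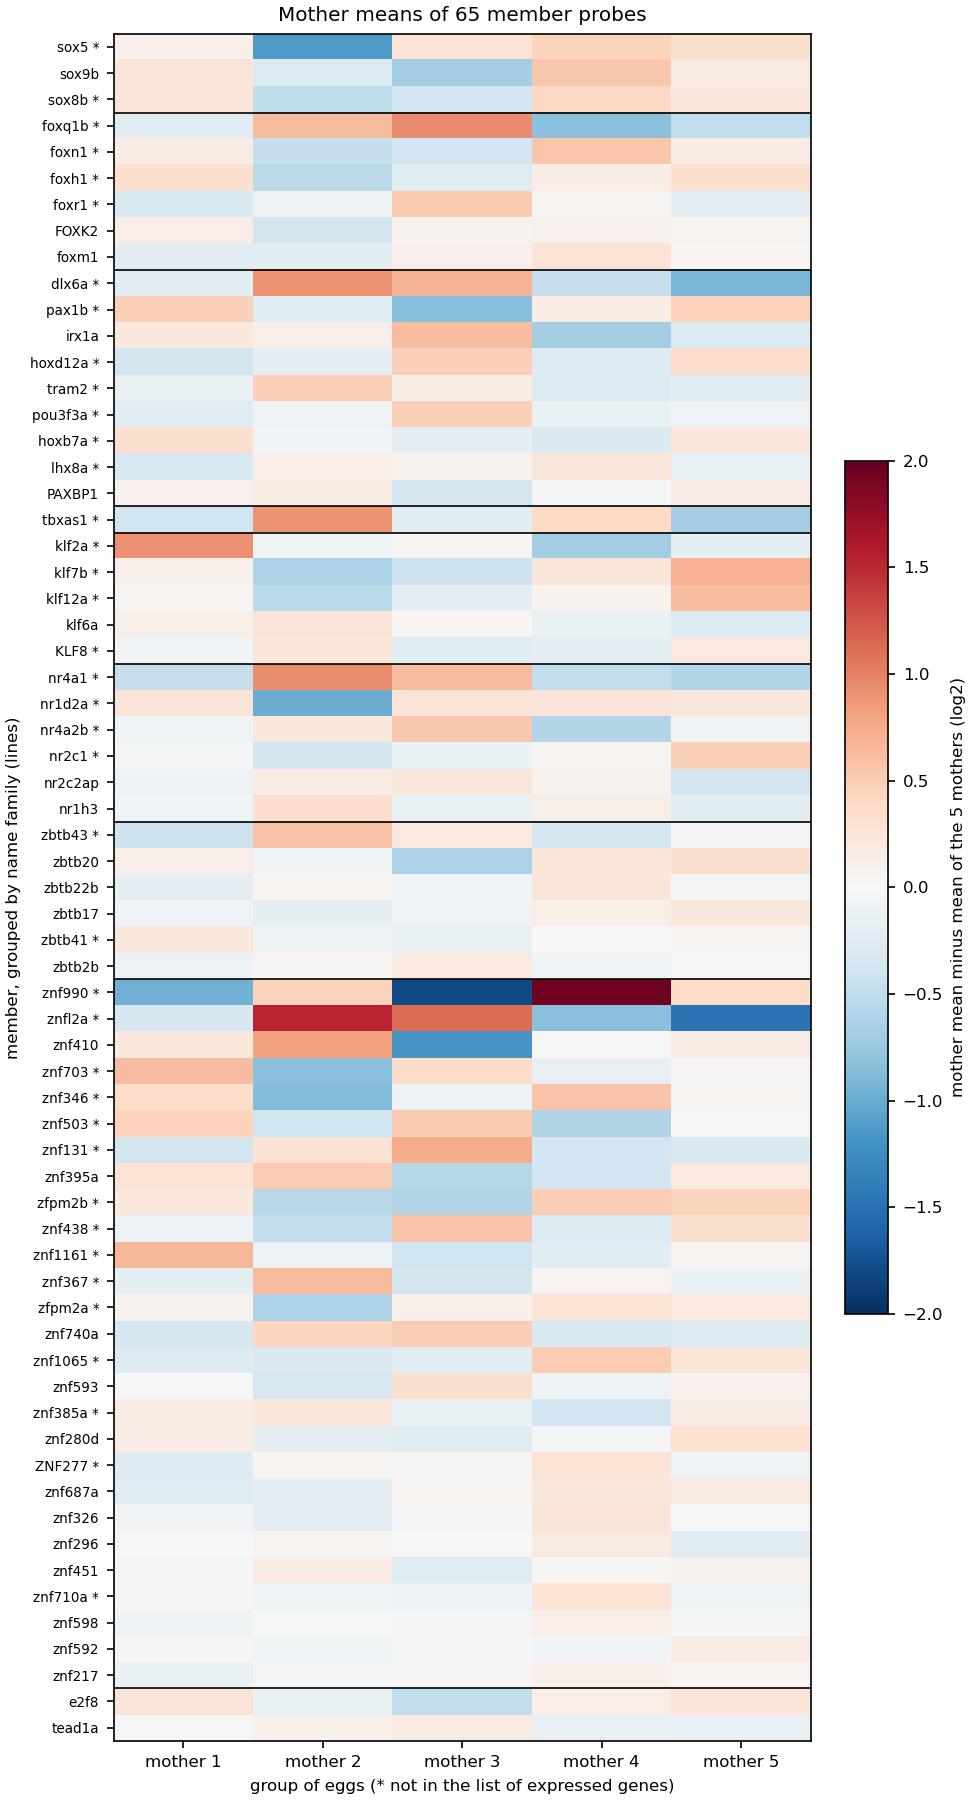
Mean of each mother minus the mean of the 5 mothers (log2, colour scale) for 65 of the 66 members, grouped by name family with lines between families. An asterisk marks members that were not in the list of expressed genes, and the probe shown as tram2 stands among the homeodomain and paired-box names because its current symbol is paxx. The darkest cells belong to znf990, high in mother 4 and low in mother 3, and to znfl2a, high in mother 2.

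The pattern over mothers varied. Among the 59 members that differed, mother 4 was highest for 17, mothers 2 and 3 for 13 each, mother 5 for 9 and mother 1 for 7. Of all expressed probes that differed, mother 4 was highest for 24.5%, mother 3 for 25.5%, mother 2 for 21.7%, mother 5 for 17.4% and mother 1 for 10.8%. Mother 2 was lowest for 17 members and mother 3 for 16, mother 1 for 10, mother 4 for 9 and mother 5 for 7. Of the expressed probes that differed, mother 2 was lowest for 25.3%, mother 3 for 21.8%, mother 1 for 15.8%, mother 4 for 19.1% and mother 5 for 18%. Among the 38 members with distinct levels, 22 arrangements of the clutches occurred. Of the 38, 33 came from lists chosen by a difference. How often each arrangement occurs among all expressed probes was not counted, so none can be called particular to the members. The most frequent one, with mother 2 alone below the rest, was shared by 6 members: sox5, nr1d2a, zfpm2a, FOXK2, znf346 and znf703. For FOXK2 and znf346 the gap was at most 0.04 log2 units. Another 5, dlx6a, nr4a1, znfl2a, znf131 and znf740a, had mothers 2 and 3 above the other 3 mothers. foxn1, znf710a and ZNF277 had mother 4 alone above the rest.

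Some of these members are related. zfpm2a and zfpm2b encode Fog2 proteins, cofactors of Gata factors. zfpm2a was highest in mother 4 at 7.84 ± 0.19 and lowest in mother 2 at 6.94 ± 0.13 (SD, n = 5 each; 1.87-fold). The zfpm2b probe had 7.80, 7.95, 8.17, 7.82 and 7.78 in mother 4, 7.63, 8.15, 7.97 and 7.67 in mother 5 and 8.01, 7.57, 7.55, 7.66 and 7.33 in mother 1, against 6.80, 6.92, 6.70, 6.87 and 6.95 in mother 2 and 6.89, 7.07, 6.85, 6.90 and 6.44 in mother 3. Mothers 1, 4 and 5 were above mothers 2 and 3 without overlap (2.1-fold between mothers 4 and 3). Probes for other transcripts that the zfpm2b probe may bind had no gene name in the held lists, so they may not measure zfpm2b. One was dimmer, with 7.22 ± 0.18 in mother 5 (SD, n = 4) and 6.64 ± 0.17 in mother 2 (SD, n = 5), 1.49-fold apart. Another was not called expressed.

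Among the remaining homeodomain and paired-box names, pax1b, known from the sclerotome, was highest in mother 1 at 8.64 ± 0.22 and lowest in mother 3 at 7.32 ± 0.28 (SD, n = 5 each; 2.49-fold). lhx8a, whose mouse counterpart is needed by young oocytes, differed 1.46-fold between mothers 4 and 1, with 22 of 24 eggs well above background. pou3f3a and hoxb7a differed 1.62-fold and 1.54-fold.

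irx1a and hoxd12a, singled out after their values were seen, had the widest spread between eggs of a clutch. The irx1a eggs measured 9.18, 8.27, 8.76, 8.19 and 7.78 in mother 3 and 8.39, 8.29, 8.45, 8.11 and 6.91 in mother 1. Mother 2 had 8.08, 7.20, 8.35, 7.83 and 8.12, mother 5 7.19, 6.99, 7.37 and 8.65 and mother 4 6.78, 7.82, 6.97, 7.13 and 7.02. Egg 4 of mother 5 was above every egg of mother 4 and egg 5 of mother 1 below most others, and the widest clutch spanned 3.16-fold. The 2.45-fold between mothers 3 and 4 passed (adjusted p = 0.0122), though not with the arrays brought only to a common median, and the tables list 4 other transcripts for this probe. For hoxd12a the widest clutch spanned 2.65-fold and mothers 3 and 1 were 1.79-fold apart, a call that was lost without egg 1 of mother 3.

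Of the other nuclear receptor names, nr2c1 was highest in mother 5 at 9.22 ± 0.02 (SD, n = 4) and lowest in mother 2 at 8.37 ± 0.22 (SD, n = 5; 1.8-fold). nr1h3, the oxysterol receptor LXR alpha, was highest in mother 2 and lowest in mother 5 (1.46-fold, adjusted p = 0.00389), and nr2c2ap differed 1.51-fold (adjusted p = 0.0152). Among the BTB zinc finger names, 5 of 6 differed and none exceeded a fold of 2, where 61.5% and 10.2% of all expressed probes did, and 4 of the 6 were in the list of expressed genes. The others came from lists chosen by a difference, and 90.6% and 37% of the expressed probes held only in those lists did. zbtb43 reached 1.99, zbtb20 1.91 (adjusted p = 0.000117) and zbtb17, a partner of Myc, 1.34 (adjusted p = 0.0168), whereas zbtb41 did not pass. e2f8, an atypical E2F repressor, was highest in mother 5 and lowest in mother 3 (1.69-fold, adjusted p = 0.00127).

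Of the 27 zinc finger names, 12 were in the list of expressed genes, and the others came from lists chosen by a difference. Of the expressed probes held only in those lists 90.6% differed and 37% had a fold over 2, against 61.5% and 10.2% of all expressed probes. Of the 27 names, 23 differed and 11 had a fold over 2. Those with a fold over 2 that have not been described were znf131 (2.16, mother 3 over mother 4), znf395a (2.1, mother 2 over mother 3), znf438 (2.09, mother 3 over mother 2), znf503 (2.19, mother 3 over mother 4) and znf1161 (2.08, mother 1 over mother 3). The folds of znf367, znf385a, znf280d, ZNF277, znf687a, znf296 and znf451 lay between 1.32 and 1.99, and of these znf280d, znf687a, znf296 and znf451, from the list of expressed genes, passed the test. znf326 did not, at 1.33-fold (adjusted p = 0.0806). For znf593 the member probe had 11.23, 10.55, 10.61, 11.06 and 10.99 in mother 3 and 10.80, 10.38, 10.63 and 10.80 in mother 5. Mother 1 had 10.62, 10.52, 10.73, 10.53 and 10.45, mother 4 10.43, 10.10, 10.49, 10.56 and 10.71 and mother 2 10.29, 10.18, 10.49, 10.01 and 10.21, 1.57-fold apart (adjusted p = 0.00185). The znf593 probe may also bind the transcripts of 2 further probes, which had no gene name in the held lists and may not measure znf593. One had 8.78 ± 0.15 in mother 3 (SD, n = 5) and 7.07 ± 0.16 in mother 5 (SD, n = 4), 3.28-fold apart. The other had 10.35 ± 0.31 in mother 3 and 8.68 ± 0.12 in mother 5, 3.18-fold apart. Mother 3 was highest on all of them, but the lowest mother was mother 2 on the member probe and mother 5 on the others. Probes for other transcripts that the nr4a2b probe may bind also had no gene name. Of these, 1 was expressed, with 7.61 ± 0.17 in mother 3 and 6.46 ± 0.04 in mother 4 (SD, n = 5 each; 2.22-fold). Its highest and lowest mother were those of the nr4a2b member probe, and 1 more was not called expressed.

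Genes that neighbour each other within 1 Mb formed 5 pairs of members. sox8b (chr3:62161088-62166920) and sox9b (chr3:62341796-62348451), both of the SoxE group, lay 175 kb apart. sox9b had 10.11, 10.05, 10.43, 9.72 and 10.75 in mother 4 and 9.48, 10.24, 9.80, 10.46 and 9.67 in mother 1. Mother 5 had 9.53, 10.01, 10.07 and 9.77, mother 2 9.77, 9.58, 9.08, 9.01 and 9.55 and mother 3 9.20, 9.07, 8.93, 8.89 and 8.90 (2.32-fold, adjusted p = 4.6e-05). sox8b had 7.72, 7.42, 7.92, 8.02 and 8.28 in mother 4 and 7.68, 8.0, 7.85, 7.53 and 7.56 in mother 1. Mother 5 had 7.52, 7.60, 7.85 and 7.70, mother 3 7.34, 6.92, 7.19, 7.04 and 6.90 and mother 2 6.90, 6.83, 7.13, 6.91 and 6.95 (1.9-fold). Both were higher on average in mothers 4, 1 and 5 than in mothers 2 and 3. The tables list 2 other transcripts for the sox9b probe and 3 for the sox8b probe.

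**Figure D4:**
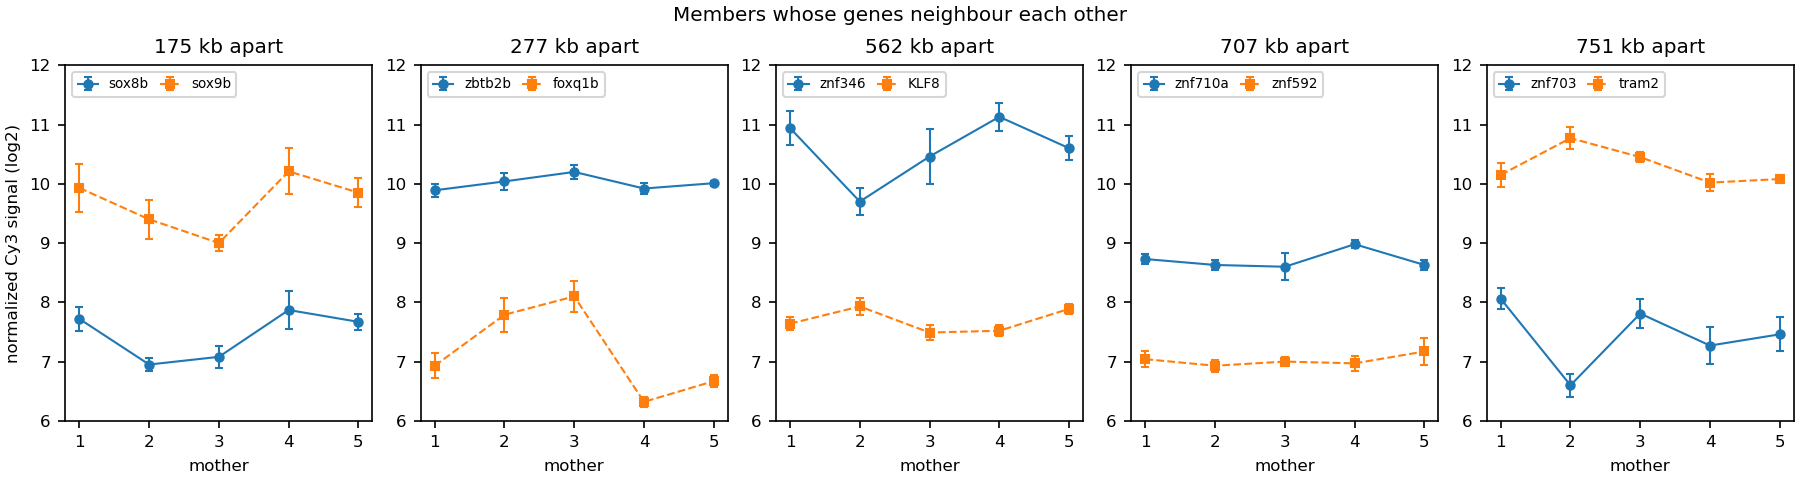
Mother means (points) with the SD between eggs (bars, n = 5, or 4 for mother 5) of normalized Cy3 signal (log2, vertical axis) for the 5 pairs of neighbouring members, by mother (horizontal axis), with the distance between both genes above each panel. Mothers 4, 1 and 5 have the higher means for both sox8b and sox9b, and foxq1b has its highest mean in mother 3 and its lowest, near background, in mother 4.

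zbtb2b (chr20:26495234-26508143) and foxq1b (chr20:26784843-26786305) lay 277 kb apart. foxq1b had 8.11, 7.79, 7.89, 8.38 and 8.33 in mother 3 and 7.64, 8.20, 7.54, 7.99 and 7.57 in mother 2. Mother 1 had 6.93, 7.23, 6.85, 6.65 and 6.99, mother 5 6.66, 6.78, 6.53 and 6.70 and mother 4 6.29, 6.28, 6.23, 6.47 and 6.34, where 1 of 5 eggs was well above background. Mother 3 at 8.10 ± 0.26 exceeded mother 4 at 6.32 ± 0.09 (SD, n = 5 each) 3.43-fold in the measured means, the lower of which rests on signals near background. znf346 (chr21:37405593-37423314) and KLF8 (chr21:37985520-38063512) lay 562 kb apart. KLF8 had 7.97, 7.81, 7.77, 8.12 and 7.98 in mother 2 and 7.87, 7.83, 7.85 and 8.01 in mother 5. Mother 1 had 7.76, 7.66, 7.53, 7.73 and 7.51, mother 4 7.40, 7.59, 7.48, 7.49 and 7.64 and mother 3 7.31, 7.60, 7.54, 7.39 and 7.59, so that its highest mother was the lowest one of znf346.

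znf710a (chr18:26061596-26110160) and znf592 (chr18:26816916-26830619) lay 707 kb apart, and mother 4 stood above the others in znf710a alone, with 8.94, 8.91, 9.07, 8.92 and 9.03. There mother 1 had 8.87, 8.72, 8.70, 8.63 and 8.74, mother 2 8.65, 8.70, 8.60, 8.67 and 8.51, mother 5 8.62, 8.62, 8.74 and 8.53 and mother 3 8.70, 8.45, 8.87, 8.68 and 8.29 (1.3-fold between mothers 4 and 3). znf703 (chr5:23826183-23829884), which encodes a co-repressor, and the probe named tram2 or paxx (chr5:24580585-24583492) lay 751 kb apart. znf703 had 8.20, 7.83, 8.20, 8.16 and 7.89 in mother 1 and 7.67, 7.96, 7.88, 8.09 and 7.47 in mother 3. Mother 5 had 7.21, 7.20, 7.70 and 7.73 and mother 4 7.02, 7.77, 7.01, 7.37 and 7.19, against 6.49, 6.35, 6.80, 6.77 and 6.61 in mother 2, where 1 of 5 eggs was well above background (2.74-fold between the measured means of mothers 1 and 2, the lower of them near background). The tram2 or paxx probe had 10.67, 10.69, 11.04, 10.84 and 10.59 in mother 2 and 10.54, 10.52, 10.33, 10.39 and 10.45 in mother 3. Mother 1 had 10.26, 10.17, 9.82, 10.16 and 10.33, mother 5 10.11, 9.97, 10.11 and 10.11 and mother 4 9.85, 10.12, 10.22, 9.98 and 9.96 (1.67-fold between mothers 2 and 4). Mother 2, the lowest in znf703, was the highest there, though with arrays centred on their medians mother 4 exceeded mother 2 (-0.24 log2 units for mother 2 minus mother 4). A second probe that the tables tie to tram2 had 11.90 ± 0.18 in mother 2 and 11.14 ± 0.20 in mother 4 (SD, n = 5 each; 1.7-fold).

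The pooled reference was the same RNA on every array. In Cy5, grouped by the mother of the egg on the same array, 0 of 66 members differed by limma's F-test, also at an unadjusted p under 0.05, and the share of all expressed probes was 0% (0.727% at an unadjusted p under 0.05). The Cy5 means of the highest group of arrays exceeded those of the lowest by 1.02-fold to 1.23-fold over the members. For znf990 it was 1.14, against 13.4 in Cy3, and for znfl2a 1.1, against 7.97 in Cy3.

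**Figure D5:**
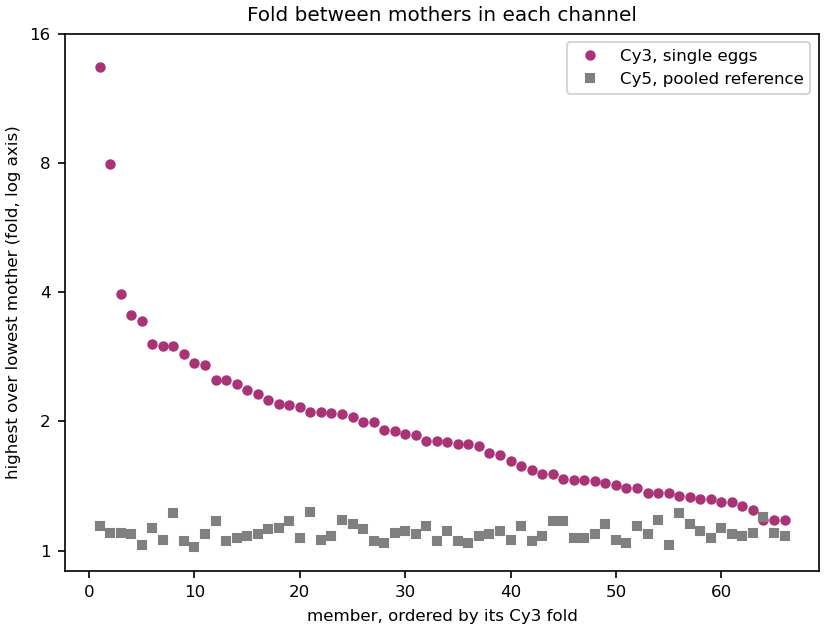
Fold of the highest over the lowest mother (vertical axis, log scale) for the 66 members, ordered by their Cy3 fold (horizontal axis), for the single eggs in Cy3 (circles) and for the pooled reference in Cy5 on the same arrays, grouped alike (squares). The Cy5 folds lie between 1.02 and 1.23, whereas the Cy3 folds reach 13.4.

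Other transcription factors and the transcription machinery were read for comparison. Of 50 expressed probes named for other factor families, 37 differed and 12 of these exceeded a fold of 2, where 61.5% and 10.2% of all expressed probes did. In the 26 of them in the list of expressed genes, 14 differed and 2 exceeded a fold of 2, where 65.4% and 10.9% of all expressed probes in that list did. These 2 were stat3 (3.16-fold, mother 4 over mother 3, adjusted p = 1.75e-09) and mef2ca (2.06-fold, mother 2 over mother 1, adjusted p = 1.31e-05). The rest of the 50 came from lists chosen by a difference, and 90.6% and 37% of the expressed probes held only in those lists did. Of 54 expressed probes of the general machinery (Mediator, TFIID, general factors, RNA polymerase and Integrator subunits) 38 differed and 7 exceeded a fold of 2, set against 61.5% and 10.2% of all expressed probes. In the 34 of them in the list of expressed genes, 20 differed and 3 exceeded a fold of 2, against 65.4% and 10.9% in that list. Their median fold was 1.31. The others came from lists chosen by a difference, where 90.6% and 37% of the expressed probes held only there did.

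Egg markers were read on all arrays, and array signal varied between and within clutches. All 15 probes of egg markers were expressed, such as npm2b at a mean of 13.77, zp3.2 at 13.83 and h1m at 10.16. One of them, ddx46, was taken in by its likeness in name to ddx4. Of the 15, 12 differed and 9 exceeded a fold of 2, where 61.5% and 10.2% of all expressed probes did, among them h1m (7.38-fold) and zp3.2 (4.46-fold). Of the 6 in the list of expressed genes 3 differed and 0 exceeded a fold of 2, against 65.4% and 10.9% in that list. The other egg markers came from lists chosen by a difference. Of the expressed probes held only in those lists, 90.6% differed and 37% had a fold over 2. Before normalization the mean log2 signal of expressed probes ran between 8.86 and 9.52 in mother 4 and between 7.62 and 9.76 over all eggs. After normalization, egg 1 of mother 1 was closest over the expressed probes to an egg of mother 4, and every other egg to an egg of its own mother. The 4 follicle cell marker probes, 3 of them not in the list of expressed genes, were all expressed and differed. Of all expressed probes 61.5% differed, and of those held only in the lists chosen by a difference 90.6%. They did not share a direction. lhcgr was at 7.59 in mother 2 and between 6.26 and 6.33 in the others, and krt8 was also highest in mother 2, at 9.56. cyp11a1 was highest in mother 5 at 11.63 and lowest in mother 2 at 10.41, and hsd3b1 was highest in mother 4 at 8.05 and lowest in mother 3 at 6.25. The summed signal of the 4, in which the abundant cyp11a1 weighs most, was between 3261 and 4249 in mother 5, 2651 and 3666 in mother 4, 2310 and 3251 in mother 3, 2232 and 2721 in mother 2, and 1925 and 2846 in mother 1. Of 4 blood marker probes 1, hbaa2, was expressed at 12.21, and of 2 muscle and skin probes 1 was expressed. The summed egg markers lay between 141822 and 270624 over all eggs. The part of adhering cells or of array signal in the members' differences was not tested, and less transcript in an egg and fewer cells that carry it cannot be told apart in whole-egg RNA. With the array mean as a covariate 59 of 66 members still differed, against 63.5% of all expressed probes, 2 calls being lost (foxm1 and znf385a) and 2 gained. With the arrays brought only to a common median, 20 of 66 members differed, where 12.5% of all expressed probes did, and 33 had the same highest mother. The members described egg by egg that were not called under that scaling, but were after quantile normalization, were foxh1, irx1a, KLF8, klf2a, nr4a2b, tram2, zbtb22b, zbtb2b, znf593, znf703, znf710a and znf740a, while znf990, znfl2a, znf410, dlx6a, nr4a1, tbxas1, znf346, sox5, sox8b, sox9b, foxq1b, zfpm2b and znf1065 were. tead1a, znf217, znf592 and znf598 were called under neither.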

How the data were processed

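Per the labels, RNA of single eggs was polyadenylated, depleted of rRNA and amplified before hybridization. The intensities were measured by the authors with Agilent Feature Extraction 10.7.3.1, which wrote a median Cy3 and Cy5 intensity per spot. The authors also deposited log2 values of 88754 probes after quantile normalization across arrays, whose mean over eggs had to reach 7 for a member. Groups are the 5 mothers named in the sample titles.

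Here log2 median Cy3 intensities of those probes were quantile normalized after leaving out 60 non-uniform spots. A probe was called expressed if its posterior of belonging to the class of high variance exceeded 0.95 on at least 4 arrays. Mothers were compared with limma 3.58.1 in R 4.3.3 by a moderated F-test, and p-values were adjusted over 27101 expressed probes (Benjamini-Hochberg). The test was run on simulated data first. Of the members, 11 were not well above background in some eggs. Precision is limited by the number of arrays, 4 or 5 per mother.

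Named in full were the 8 largest folds with all eggs above background, the 4 highest levels, the 4 smallest mFC and zygotic genome activation factors. Neighbours within 1 Mb and members that may bind the transcript of a further probe were added. The members and lists were chosen with earlier results of these data known. Alternatives were background correction, scaling, channel, slide, egg number, array mean, filters, list of origin and leaving out each egg. The study's gene lists were held in part, and their statistics were used only to see that the F-test list held probes past its own threshold. Members in the list of expressed genes were then counted apart, a choice made after seeing the data. Egg numbers did not pair the eggs, as deviations of same-numbered eggs had a median correlation of 0.0609, against -0.0154 for others. One member and 1 name under the level limit are not reported here.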

Additional observations from a re-analysis of the deposited data

Results flagged for a closer look

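Of 135 groups of 4 or 5 eggs of the members described in full, 4 held an egg whose gap to the nearest other egg took most of the range of the clutch. Chance gives about 1 in 20 groups, here about 7. Egg 2 of mother 5 was lowest in the tram2 or paxx probe at 9.97, against 10.11 in the other eggs of the clutch (gap 0.984 of the range). Egg 4 of mother 5 was lowest in znf217 at 8.51, against 8.95 to 9.03 (0.845). Egg 1 of mother 1 was highest in znf990 at 8.14, against 7.66 to 7.79 (0.738), and egg 3 of mother 4 was highest in znf990 at 11.04, against 10.57 to 10.68 (0.753). In znf990 both eggs stayed at the level of their own clutch.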

How the results depend on the processing

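Of the 66 members, leaving out each egg in turn kept between 86.36% and 92.42% called and between 36.36% and 40.91% with a fold over 2. It gave between 57.58% and 60.61% with distinct levels and between 89.39% and 90.91% with a clutch mFC of at most 2. Leaving out an egg can only narrow the range of a clutch. The shares with distinct levels and with that clutch mFC therefore could not fall, and their lower ends are those of all eggs. Calls that rested on 1 egg were znf280d (lost without any of 8 eggs: egg 2 of mother 1, egg 4 of mother 2, eggs 1, 3 and 4 of mother 3, eggs 1, 2 and 4 of mother 5), hoxd12a (egg 1 of mother 3), znf451 (egg 5 of mother 3), znf385a (egg 1 or 2 of mother 4), zbtb22b (egg 2 or 5 of mother 4) and nr2c2ap (egg 2 of mother 5). klf6a, zbtb41, znf326, tead1a and znf592 gained a call without 4, 3, 2, 2 and 1 of the eggs. With the egg number as a replicate block the share called was 89.39%, as without it, and no call among the members changed.

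Bringing the arrays only to a common median left 30.3% of members called (20, against 12.5% of expressed probes), 6.061% with distinct levels (3.3% of expressed probes) and 1.515% with a clutch mFC of at most 2 (9.42% of expressed probes), and turned the tram2 or paxx probe to -0.24 log2 units between mothers 2 and 4. Under it 10 of the 27 members described in full lost their call with the direction kept, at log2 differences between 0.11 (KLF8) and 1.88 (znf740a, against 0.82 after quantile normalization). Scaling the processed signals by their 75th percentile gave 46.97% with a clutch mFC of at most 2 (51.3% of expressed probes), and the Cy3 over Cy5 ratio 34.85% with distinct levels (10.8% of expressed probes). The cause was not tested. Probes present on all arrays, 40 members, gave 22.5% with a fold over 2 (8.56% of expressed probes). Without the members held only in the list of distinct levels, 14.71% had a fold over 2 and 17.65% distinct levels, and for the 27 members in the list of expressed genes, a choice made after seeing the data, 14.81% and 18.52%, since the lists left out were chosen on this readout. With the slide as a block 56 of 66 members were called (58.1% of expressed probes), and nr2c2ap, znf280d and znf451 were not. Over the members described in full, 968 of 988 values under an alternative kept the direction and the side of the threshold. Most of these alternatives left out a single egg, and most of these members came from lists chosen by a difference. That share is therefore no evidence of a difference. Signal over background limited 11 members, which were not well above it in every egg.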
